A study of Homo sapiens with 80 samples.

Results

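Jurkat T cells held at 9 g for 15 min (hypg15) were compared with Jurkat T cells held at 1 g for 15 min (Ctrl). Jurkat is an established line of leukaemic human T lymphocytes. The members were taken by treatment label, which gave 5 hypg15 libraries (numbers 76 to 80) and 6 Ctrl libraries (numbers 1 to 6) out of 80 libraries in the whole series, 60 of them from the 9 g experiment. A further hypg15 library, number 75, held no counts on chromosomes 4 to 9, X, Y and MT and was left out of the comparison. The cells of both groups were kept in serological pipettes. The hypg15 pipettes were spun in a pipette centrifuge and the cells were lysed right after the stop. RNA was depleted of ribosomal RNA before library construction, so that transcripts without a poly-A tail were counted as well. The hypg15 libraries belong with those of 3 min at 9 g (hypg3) to the number block 69 to 80, whereas Ctrl has the numbers 1 to 6. What the library numbers mark is not given in the sources used here, and this block and the exposure cannot be told apart in the comparison with Ctrl.

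Cells sense mechanical load through membrane channels, integrins and the cytoskeleton, which connects to the nuclear lamina and chromatin. In lymphocytes, immediate early genes such as MYC, JUN and EGR1 respond to many stimuli within minutes, whereas heat shock genes are switched on by the transcription factor HSF1 when proteins misfold. Within minutes the level of a transcript changes through new synthesis or through decay of what is already there, and short-lived noncoding transcripts can change fastest.

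The total counts ran from 22634465 to 26438639 in hypg15 and from 27314458 to 36083081 in Ctrl. T lineage markers were present in every library, with a summed level of 4132 to 4526 CPM (counts scaled to the library size) in hypg15 and 4195 to 4457 in Ctrl. The 8 myeloid markers summed to at most 1.20 CPM in any library, and the 7 erythroid markers to at most 0.128 CPM with HBB, HBG1 and HBG2 at 0. Of the 8 epithelial and stromal markers 5 (EPCAM, CDH1, KRT5, KRT14 and COL1A2) had no count. PECAM1 accounted for nearly all of that list, which summed to 189 to 221 CPM in hypg15 and 203 to 222 in Ctrl. The 8 B cell markers summed to 103 to 121 CPM in hypg15 and 99.4 to 112 in Ctrl, led by CD79A, and CD22 had no count. Replicates of a group differed from each other by more than counting noise, so none was a repeated deposit. The labels do not say whether the libraries of a group came from separate cultures, and the p-values measure only the spread between these libraries. As the RNA is from bulk cells, fewer cells with a transcript and less transcript per cell cannot be told apart.

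After 15 min at 9 g, 4040 of 15875 genes were upregulated (25.4% of the genes tested) and 4437 were downregulated (27.9%). The test was edgeR's quasi-likelihood F test with an adjusted p under 0.05. The changes were mostly small. The median log2 fold change was 0.35 among upregulated and -0.50 among downregulated genes, and 0.02 over all genes tested. An increase of more than 1 on the log2 scale was found for 225 genes and a decrease of more than 1 for 211. Among the 8433 genes that averaged 10 CPM or more, 3 rose that much and 80 fell that much. The CPM values of hypg15 and Ctrl did not overlap for 5232 genes, which is 33.0% of the genes tested.

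The direction of change went with the base composition of the transcript. The share of upregulated genes was 1.8% where the GC content of the longest transcript was 35 to 40% and 58.0% where it was 60 to 65%. The share of downregulated genes went from 73.2% to 0.737% between the same bins. Across 15682 genes with a known GC content, Spearman's rho between GC content and log2 fold change was 0.67, given as a description since genes share libraries and are not replicates. The median GC content was 57.7% for upregulated and 41.5% for downregulated genes. All 5 hypg15 libraries had this tilt. The slope of log2 CPM on GC content, relative to the mean of Ctrl, was 0.21 to 0.47 per 10 percentage points in hypg15 and -0.12 to 0.07 in Ctrl. The slope was 0.07 to 0.33 in the hypg3 libraries of the same number block. Outside the block it was -0.01 to 0.23 after 20 s at 9 g, 0.07 to 0.25 after 75 s, -0.10 to 0.28 after 5 min, -0.11 to 0.12 after 7 min, -0.05 to 0.18 after 9 min and -0.15 to 0.31 after 60 min. The part of library preparation and of the number block in this tilt was not tested. For many of the genes and lists, a log2 fold change is also given after a GC correction, in which a smooth curve of the GC content was fitted to each library and centred on the median gene. With that correction 3029 genes (19.1%) were upregulated and 2981 (18.8%) downregulated. Of the 4040 upregulated genes 1872 were again upregulated and 54 were downregulated. Of the 4437 downregulated genes 1991 were again downregulated and 204 were upregulated. When the curve was instead centred on the mean over genes, the median gene shifted by -0.07, and 2062 genes were upregulated and 4697 downregulated. The upregulated share of the called genes was then 30.5% instead of 47.7%. After the correction centred on the median gene, the log2 fold change was smaller by a factor of over 1.5, or turned, for 64 of 77 downregulated and 23 of 56 upregulated named genes with a known GC content, and larger by that factor for 1 and 3. Among the genes described below, the increases (log2 fold change in brackets) of TLN1 (0.051), POLE (0.049), FOXM1 (0.061), ZNF628 (0.064), NOTCH3 (0.096), ITGAL (0.096), ZFP36 (0.11), PKD1 (0.14), PVT1 (0.17) and SETD1B (0.18) were not called with the curve centred on the mean (adjusted p of 0.0585 to 0.448 in edgeR).

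**Figure D1:**
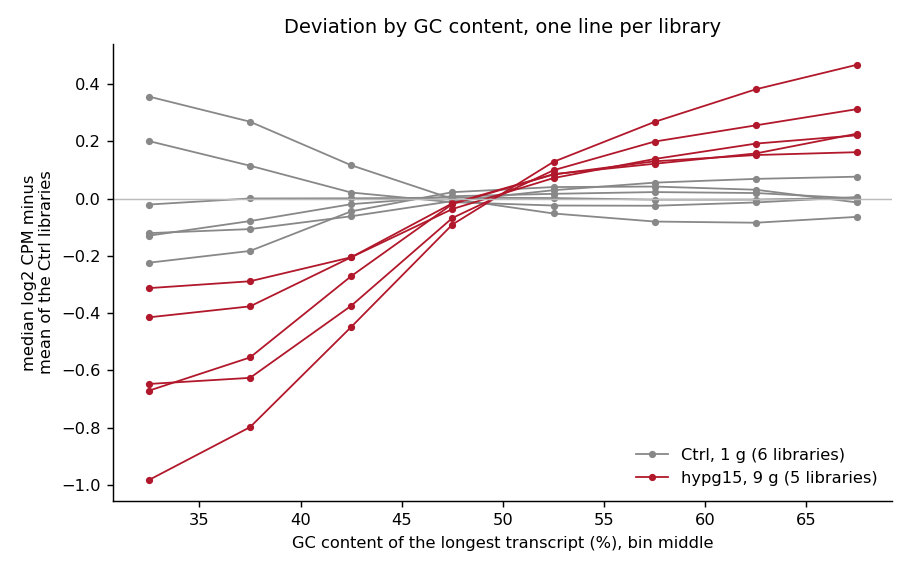
Median deviation of log2 CPM from the mean of the 6 Ctrl libraries (y axis) against GC content in bins of 5 percentage points (x axis, %), one line per library, grey for Ctrl and red for hypg15. In the bin of 35 to 40% GC the hypg15 libraries lie between -0.80 and -0.29 and the Ctrl libraries between -0.18 and 0.27.

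Protein-coding genes of the mitochondrial genome rose together. All 13 were upregulated, with a median log2 fold change of 0.71 and of 0.92 after GC correction. Of all genes tested 25.4% rose and 27.9% fell (19.1% and 18.8% after GC correction). The 13 genes encode subunits of respiratory complexes I, III and IV and of ATP synthase. MT-ND5, a subunit of complex I, was at 819, 890, 799, 690, 882 and 837 CPM in the Ctrl libraries 1 to 6. In the hypg15 libraries 76 to 80 it was at 1350, 2352, 1159, 1468 and 1542 CPM. Each hypg15 library was above each Ctrl library, and library 77 was the highest. The log2 fold change of MT-ND5 was 0.94 ± 0.14 (SE, n = 5 and 6) with an adjusted p of 5.65e-05 by edgeR's quasi-likelihood test. MT-ND1, of the same complex, went from 1513 ± 114 CPM (SD, n = 6) to 2611 ± 541 CPM (SD, n = 5). MT-ND6, the protein-coding gene on the light strand, went from 80.4 ± 14.8 to 162 ± 61.7 CPM, and its groups overlapped. The smallest changes among the 13 were those of MT-ND3 (0.31) and MT-CO3 (0.38) on the log2 scale. Of all 28 tested genes of the mitochondrial genome, transfer and ribosomal RNAs included, 20 rose and 1 fell, and after GC correction 24 rose and 0 fell. The 1 that fell, the transfer RNA gene MT-TV, went from 0.707 to 0.394 CPM and is named because it was the exception.

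The mitochondrial genome took 2.29% ± 0.603 of all counts in hypg15 (SD, n = 5) and 1.49% ± 0.103 in Ctrl (SD, n = 6). The exact permutation test gave p = 0.00433, the smallest that 5 against 6 libraries allow, and an adjusted p of 0.00974 over 9 gene classes. Nuclear protein-coding genes (90.9% in Ctrl and 88.3% in hypg15) reached the same p. So did miscellaneous RNAs and ribozymes (5.41% and 7.00%) and genes without a type (0.275% and 0.315%). The shares of 1 library depend on each other. Library 77 had a mitochondrial share of 3.32%, and the other 4 hypg15 libraries 1.82 to 2.21%, all above the highest Ctrl library at 1.60%. Without library 77 the median log2 fold change of the 13 genes was 0.55. The median GC content of these genes was 44.3%, and of all tested genes with 40 to 45% GC 4.92% rose and 57.5% fell. Nuclear genes of the same respiratory complexes fell more often than they rose. Of 82 tested nuclear genes of oxidative phosphorylation 7 rose (8.54%) and 41 fell (50.0%), against 25.4% and 27.9% of all genes tested, with a median log2 fold change of -0.19 (-0.13 after GC correction). ATP5F1E, a small subunit of ATP synthase, fell by 0.93 ± 0.09 (SE) on the log2 scale. UQCRB of complex III fell by 0.87 ± 0.08, and COX6C of complex IV by 0.82 ± 0.08. Of 76 genes of mitochondrial ribosomal proteins 3 rose and 35 fell (10 and 34 after GC correction). Of all genes tested, 19.1% rose and 18.8% fell after that correction. MRPL1 fell most, from 15.5 ± 1.17 CPM (SD, n = 6) to 6.12 ± 1.03 CPM (SD, n = 5). MRPS31 fell by 0.91 ± 0.11 on the log2 scale. MTATP6P1, a copy of MT-ATP6 in nuclear DNA, rose by 0.75 ± 0.13, but its read pairs can come from the mitochondrial gene itself and its count is uncertain.

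**Figure D2:**
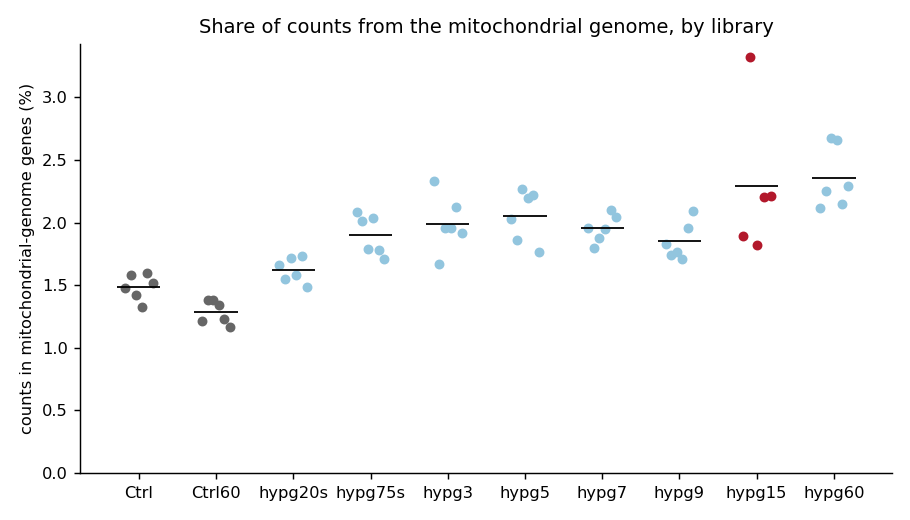
Share of counts in genes of the mitochondrial genome (y axis, %) for each library of the 9 g experiment by group (x axis), with the group mean as a line. The 5 hypg15 libraries (red) lie between 1.82 and 3.32%, above the 6 Ctrl libraries between 1.33 and 1.60%.

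The genes of largest increase among those averaging 10 CPM or more were SLC23A1, the leukotriene receptor gene LTB4R2, TTC34, mitochondrial genes and a set of noncoding transcripts. SLC23A1, a vitamin C transporter, was at 8.88, 10.1, 10.3, 8.23, 9.64 and 7.86 CPM in Ctrl and at 16.0, 23.0, 17.4, 18.7 and 24.7 CPM in hypg15. The groups did not overlap, and the log2 fold change was 1.12 ± 0.11 (SE) with an adjusted p of 4.73e-06 by edgeR's test. LTB4R2, a receptor for leukotriene B4, rose by 0.90 ± 0.10 and TTC34, a tetratricopeptide repeat gene, by 0.89 ± 0.09. RENO1, a long noncoding RNA, rose from 8.61 ± 1.20 to 16.7 ± 2.63 CPM. The antisense transcripts SLFNL1-AS1 (0.83 ± 0.11) and MZF1-AS1 (0.80 ± 0.09) and the intergenic LINC00235 (0.81 ± 0.08) rose by similar log2 amounts. SNORD3B-2, a copy of the U3 small nucleolar RNA that processes ribosomal RNA, rose by 0.80 ± 0.11. Its copy SNORD3B-1 rose by 0.69 ± 0.08. The sequences are nearly the same, so how the counts were split between the copies is uncertain. The nuclear genes among these with a known GC content were also called up after the GC correction, by 0.54 to 1.02 on the log2 scale. RENO1, for which no GC content was known and which had no curve of its own, was called up in that fit by 1.03.

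**Figure D3:**
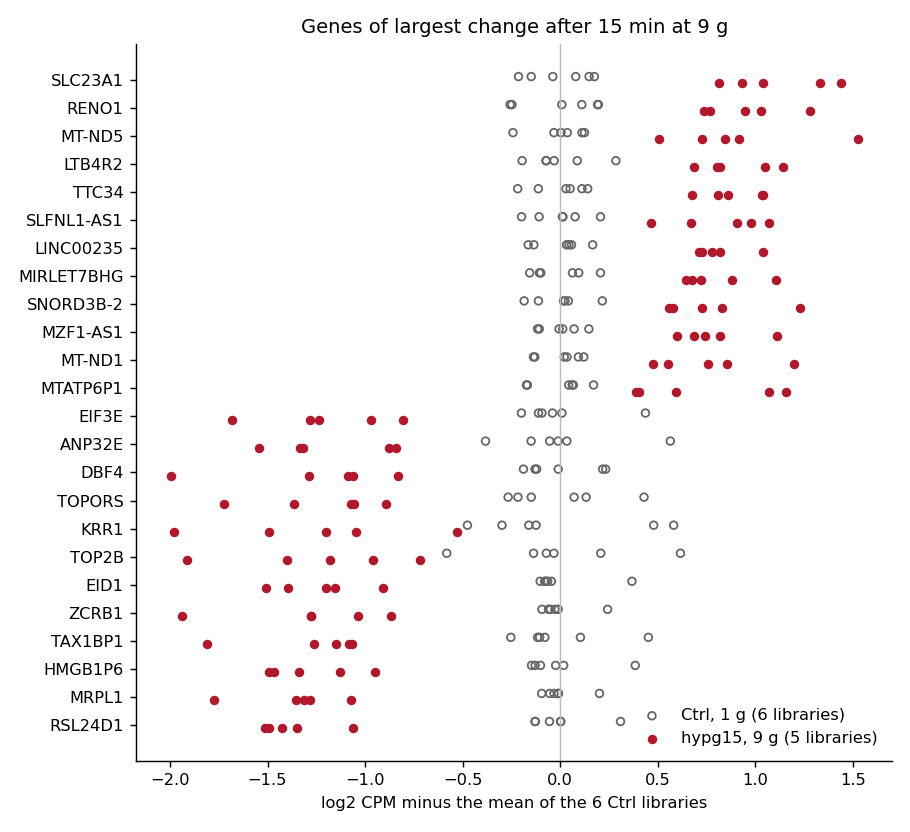
Log2 CPM minus the mean of the 6 Ctrl libraries (x axis) for the 12 genes of largest increase and the 12 of largest decrease that average 10 CPM or more and whose groups do not overlap (y axis). Open circles are Ctrl libraries and red circles hypg15 libraries. MT-ND5 rose by 0.94 and RSL24D1 fell by 1.37 on the log2 scale in the fit.

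Long noncoding RNAs as a class were more often upregulated than downregulated. Of 2264 tested, 889 rose (39.3%) and 120 fell (5.30%), against 25.4% and 27.9% of all genes tested. The median log2 fold change was 0.32 (0.33 after GC correction) against 0.02 over all genes. Of 470 antisense long noncoding RNAs 173 rose (36.8%) and 33 fell (7.02%), and of 204 intergenic ones 73 rose (35.8%) and 10 fell (4.90%). SRRM2-AS1 rose by 0.64 ± 0.09 and LINC01089 by 0.47 ± 0.08. The share of counts of all long noncoding RNAs was 1.10% ± 0.0726 in hypg15 and 0.983% ± 0.0627 in Ctrl (adjusted p = 0.0468, exact permutation test). With any 1 of 9 of the 11 libraries left out, the adjusted p of this share was 0.0514 to 0.103. Of 17 nuclear long noncoding RNAs 4 rose (23.5%) and 4 fell (23.5%), near the shares of all genes tested, with a median of -0.12. After GC correction the median was 0.24 and 8 rose and 0 fell, where 19.1% of all genes tested rose and 18.8% fell. MALAT1, which sits in nuclear speckles, fell from 531 ± 160 to 362 ± 85.4 CPM with overlapping groups, and its log2 fold change of -0.55 ± 0.18 was -0.10 after GC correction (adjusted p = 0.571 in edgeR). The call of MALAT1 was also lost without library 80 (adjusted p = 0.0502) and with all 9 g libraries in 1 model (adjusted p = 0.0749). NEAT1, the scaffold of paraspeckles, was at 40.3 ± 15.3 CPM in Ctrl and 52.3 ± 11.2 in hypg15 (adjusted p = 0.142 by edgeR). Its log2 fold change of 0.38 was 0.62 after GC correction (adjusted p = 0.0211), 0.52 with a length correction (adjusted p = 0.0172), 0.44 with 3 surrogate variables (adjusted p = 2.02e-07) and 0.56 without Ctrl library 2 (adjusted p = 0.0198). MIAT rose by 0.57 ± 0.09 and PVT1, next to MYC, by 0.33 ± 0.09.

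Host genes of small RNAs were more often called up than down. Of 29 host genes of small nucleolar RNAs 17 rose (58.6%) and 1 fell (3.45%), against 25.4% and 27.9% of all genes tested, with a median log2 fold change of 0.23 (0.27 after GC correction). SNHG12 rose by 0.50 ± 0.05, SNHG20 by 0.53 ± 0.09 and SNHG26 by 0.49 ± 0.09. SNHG6 fell by 0.61 ± 0.07. Of 97 small nucleolar and Cajal body RNAs themselves 35 rose and 2 fell, among them SNORA5C with a rise of 0.53 ± 0.08. Their median log2 fold change was 0.30, but -0.028 with a correction for transcript length in place of GC content. Library 80 had 0.598% of its counts in this class, whereas the other 4 hypg15 libraries had 0.239 to 0.298%, and Ctrl 0.291 to 0.334%. The exact permutation test of these shares gave an adjusted p of 0.961. RN7SL1, the RNA of the signal recognition particle, was at 53606 ± 4856 CPM in Ctrl and 70481 ± 11599 in hypg15. Its log2 fold change was 0.39 ± 0.13, and 0.29 with an adjusted p of 0.108 in edgeR without library 80. The log2 fold change of RN7SL1 was 0.14 after GC correction (adjusted p = 0.275) and 0.12 with the length correction (adjusted p = 0.440).

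Of 26 microRNA host genes 10 rose (38.5%) and 1 fell (3.85%), against 25.4% and 27.9% of all genes tested, with a median log2 fold change of 0.24 (0.30 after GC correction). The 3 of largest increase above 10 CPM were MIRLET7BHG, MIR17HG and MIR142HG. MIR17HG, the host of the miR-17-92 cluster, which drives proliferation in lymphoid cells, was at 29.8, 29.6, 29.3, 29.2, 32.8 and 29.1 CPM in Ctrl. It was at 44.0, 54.5, 50.4, 56.0 and 45.7 CPM in hypg15, above every Ctrl library. Its log2 fold change was 0.74 ± 0.07 (adjusted p = 2.59e-06 by edgeR), and 1.30 after GC correction. MIR142HG, the host of the blood-cell microRNA miR-142, went from 32.0 ± 3.58 to 52.6 ± 11.3 CPM. MIRLET7BHG, the host of let-7a-3 and let-7b, went from 16.3 ± 1.62 to 28.6 ± 3.97 CPM. These libraries count the long host transcripts, and the level of the mature microRNAs was not measured. The mature microRNAs of these hosts, from RefSeq on GRCh38.p14, are shown to tell which targets the hosts could serve, with the seed (bases 2 to 8) in capitals. The products of MIR17HG lie on the plus strand of chromosome 13, the first of them at chr13:91350618-91350640 and the last at chr13:91351361-91351382:
hsa-miR-17-5p: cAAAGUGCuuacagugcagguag
hsa-miR-20a-5p: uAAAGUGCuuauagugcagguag
hsa-miR-18a-5p: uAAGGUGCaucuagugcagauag
hsa-miR-19a-3p: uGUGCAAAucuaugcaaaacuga
hsa-miR-19b-3p: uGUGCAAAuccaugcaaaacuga
hsa-miR-92a-3p: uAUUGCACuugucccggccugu
The products of MIRLET7BHG lie on the plus strand at chr22:46112752-46112773 and chr22:46113691-46113712, and those of MIR142HG on the minus strand at chr17:58331245-58331267 and chr17:58331283-58331303:
hsa-let-7a-5p: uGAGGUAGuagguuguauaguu
hsa-let-7b-5p: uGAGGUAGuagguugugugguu
hsa-miR-142-5p: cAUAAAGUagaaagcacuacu
hsa-miR-142-3p: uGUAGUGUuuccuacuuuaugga
The miR-17 and miR-20a seeds are the same, as are those of miR-19a and miR-19b and those of both let-7 members, so the 3 hosts carry 7 different seeds in these 10 microRNAs.

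Among genes averaging 10 CPM or more whose groups did not overlap, those of largest decrease were protein-coding genes of various functions and 1 processed pseudogene. RSL24D1, a factor of large ribosomal subunit assembly, was at 65.7, 63.2, 81.3, 65.8, 60.1 and 60.0 CPM in Ctrl and at 23.3, 24.4, 31.4, 25.8 and 23.0 CPM in hypg15. The log2 fold change was -1.37 ± 0.09 (SE) with an adjusted p of 5.76e-07 by edgeR's test, and -0.73 after GC correction. KRR1, which assembles the small subunit, fell by 1.22 ± 0.23, and DDX21, a nucleolar RNA helicase, by 1.03 ± 0.11. EIF3E, a subunit of initiation factor 3, went from 114 ± 19.5 to 50.2 ± 11.2 CPM. ZCRB1, a protein of the minor spliceosome, fell by 1.24 ± 0.14. TAX1BP1, a selective autophagy receptor, fell by 1.27 ± 0.14. EID1, an inhibitor of histone acetylation, fell by 1.23 ± 0.11, TOPORS, a ubiquitin and SUMO ligase, by 1.21 ± 0.15, and ANP32E, a chaperone of histone H2A.Z, by 1.18 ± 0.16. HMGB1P6 (-1.27) is a processed copy of HMGB1, so its read pairs can come from that gene and its count is uncertain. NUCKS1, an abundant chromatin protein, went from 263 ± 28.2 to 135 ± 12.5 CPM. After GC correction these decreases were smaller, at -0.59 for KRR1, -0.63 for DDX21 and for EIF3E, -0.61 for ZCRB1, -0.86 for EID1, -0.74 for TOPORS, -0.57 for ANP32E, -1.02 for HMGB1P6 and -0.45 for NUCKS1, whereas TAX1BP1 was at -1.24.

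Genes of translation fell more often than they rose, where 25.4% of all genes tested rose and 27.9% fell (19.1% and 18.8% after GC correction). Of 88 cytosolic ribosomal protein genes 2 rose (2.27%) and 44 fell (50.0%), with a median log2 fold change of -0.19 (-0.18 after GC correction). RPL7, at 351 to 444 CPM in Ctrl and 175 to 251 in hypg15, fell by 0.94 ± 0.08. RPL34 fell by 0.93 ± 0.07 and RPS24 by 0.88 ± 0.09. Ribosomal protein genes have many processed copies, and how read pairs were shared with these is not known. Of 47 translation factors 4 rose (8.51%) and 21 fell (44.7%), and 8 rose and 16 fell after GC correction. EIF5B, which joins the subunits, fell by 1.03 ± 0.18, and the helicase EIF4A1 rose by 0.59 ± 0.08. Of 20 aminoacyl-tRNA synthetases 3 rose (15.0%) and 8 fell (40.0%), with 1 up and 6 down after GC correction, EPRS1 among them by 0.93 ± 0.10 on the log2 scale, and their median went from -0.057 to 0.021 with a length correction. Of 41 proteasome subunits 1 rose (2.44%) and 18 fell (43.9%), with 3 up and 15 down after GC correction, among them PSMD12 with a fall of 0.93 ± 0.14.

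Chromosome structure and mitosis genes had the lowest medians of all lists before the GC correction. After it the heat shock chaperones (-0.19) were lower than both. Cytosolic ribosomal proteins (-0.175) and oxidative stress genes (-0.143) were then lower than the mitosis list of kinesin, centromere and spindle genes (-0.139). Of 24 cohesin, condensin and CTCF genes 1 rose (4.17%) and 19 fell (79.2%), against 25.4% and 27.9% of all genes tested, with a median log2 fold change of -0.65. After GC correction the median was -0.18 and 14 fell, where 19.1% of all genes tested rose and 18.8% fell. SMC2 of condensin went from 39.8 ± 12.3 to 18.7 ± 5.96 CPM, NCAPG of the same complex fell by 0.90 ± 0.15, and STAG2 of cohesin fell by 1.00 ± 0.20 with overlapping groups. Of 56 kinesin, centromere and spindle genes 9 rose and 39 fell, with a median of -0.42. After GC correction 2 rose and 26 fell, with a median of -0.14. TTK, the spindle checkpoint kinase, fell by 1.17 ± 0.21, CKAP2 by 1.15 ± 0.16 and CENPU by 1.05 ± 0.10. The topoisomerases TOP2A (-1.11 ± 0.13) and TOP2B (-1.22 ± 0.20) both fell, and after GC correction they fell by 0.61 and 0.75. Among cell cycle regulators 7 of 36 rose and 15 fell (6 and 12 after GC correction). CDK1 fell by 0.94 ± 0.15 and RB1 by 0.94 ± 0.19, whereas FOXM1, a driver of mitotic genes, rose by 0.29 ± 0.05. DBF4, the partner of the CDC7 kinase that fires replication origins, fell by 1.21 ± 0.15. Of 46 DNA replication genes 5 rose and 24 fell (3 and 15 after GC correction). RFC1 of the clamp loader fell by 1.07 ± 0.16, whereas the polymerase POLE rose by 0.28 ± 0.04. Of 34 DNA repair genes 4 rose and 19 fell, such as NBN (-1.07 ± 0.15), with a median of -0.27. With the GC correction 10 rose and 7 fell, and the median was -0.0047. Of 61 replication-dependent histone genes 27 rose, H2BC6 among them (0.39 ± 0.08), with a median of 0.16. With the GC correction the median was 0.03, and 14 rose and 3 fell, and with a length correction the median was -0.028.

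In the lists of splicing and transcription genes, calls went both ways, where 25.4% of all genes tested rose and 27.9% fell (19.1% and 18.8% after GC correction). Of 57 spliceosome core and hnRNP genes 7 rose and 30 fell, with a median of -0.20. After GC correction 11 rose and 26 fell, with a median of -0.13. LSM3, of the ring that binds U6 RNA, was at 50.1 to 55.9 CPM in Ctrl and 18.9 to 29.8 in hypg15, and it fell by 1.10 ± 0.09 and by 1.02 after GC correction. SF3B6 of the branch site complex fell by 1.06 ± 0.10. Of 34 SR proteins and their kinases 6 rose and 23 fell, with a median of -0.29. The median turned to 0.09 with the GC correction, with 12 up and 6 down. SRSF11 fell by 0.90 ± 0.12, whereas CLK3 rose by 0.23 ± 0.06 and the export helicase DDX39B by 0.37 ± 0.07. The scaffold SRRM2 rose by 0.30 ± 0.07, and by 0.13 after GC correction (adjusted p = 0.168 in edgeR). Of 44 genes of nonsense-mediated decay and RNA turnover 7 rose and 22 fell, MTREX of the nuclear exosome by 0.98 ± 0.14. After GC correction 8 rose and 10 fell, and the median went from -0.18 to 0.0028. POLR2A, the large subunit of RNA polymerase II, rose from 819 ± 27.0 to 1065 ± 67.1 CPM, and the small subunit POLR2K fell by 1.11 ± 0.10. Of 49 chromatin modifiers 17 rose (34.7%) and 12 fell (24.5%), not far from the shares of all genes tested, and 7 rose and 14 fell after GC correction. The histone methylase genes KMT2D (0.64 ± 0.09) and SETD1B (0.49 ± 0.09) and the demethylase gene KDM6B (0.55 ± 0.09) rose, and the deacetylase gene HDAC2 fell by 0.90 ± 0.10. Of 182 tested zinc finger genes of chromosome 19, most of them repressors with a KRAB domain, 27 rose and 66 fell, but 42 rose and 17 fell after GC correction, and their median turned from -0.19 to 0.08. ZNF714 (-0.82 ± 0.16) and ZNF146 (-0.75 ± 0.17) were among those that fell, with overlapping groups.

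**Figure D4:**
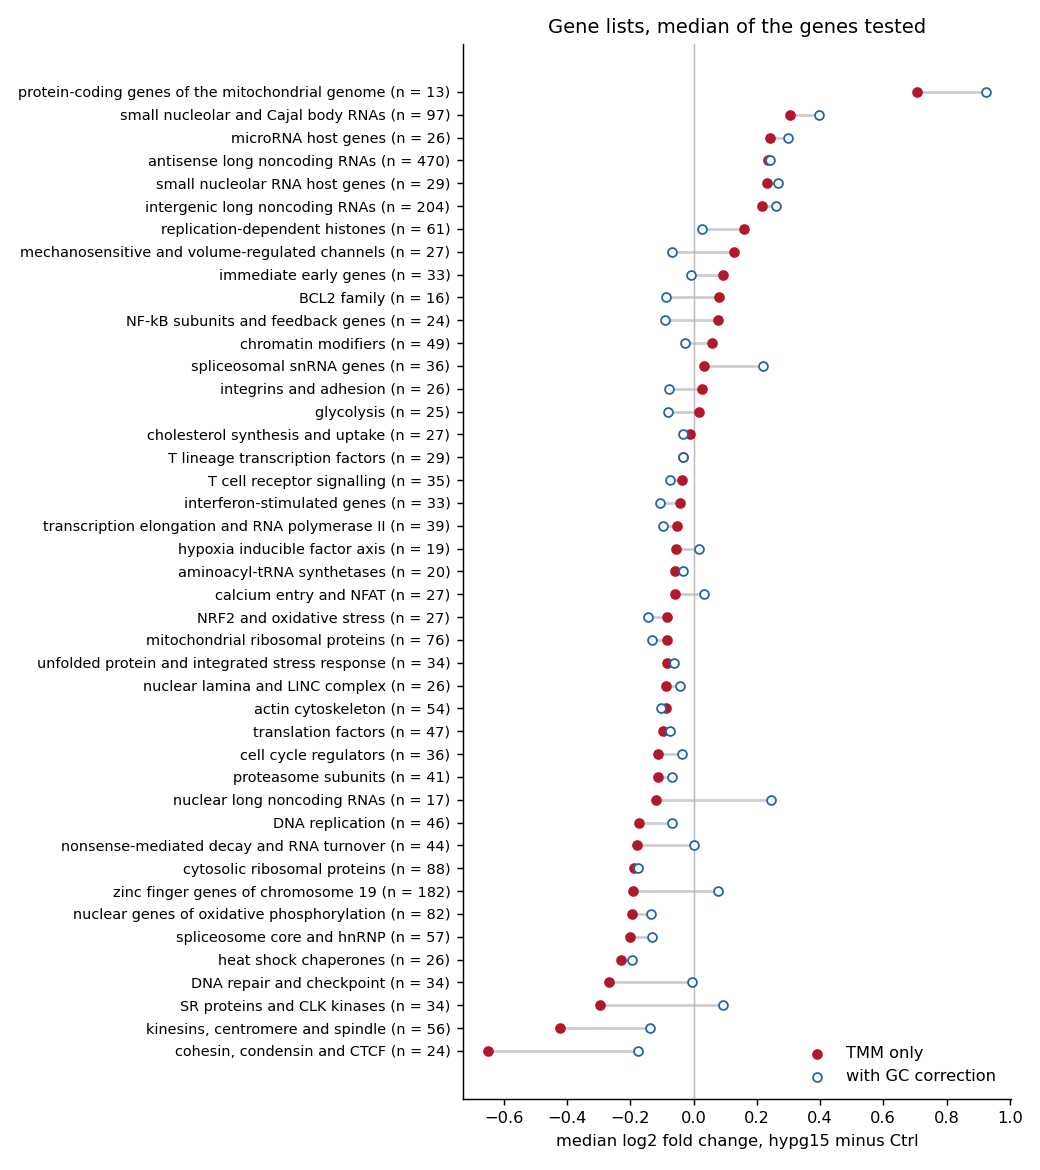
Median log2 fold change of hypg15 against Ctrl (x axis) over the tested genes of each list of at least 10 (y axis, n tested in brackets), red with TMM normalization only and open blue with the GC correction. The mitochondrial genome has the highest medians (0.71 and 0.92), and the medians of many lists change sign between the settings, among them SR proteins, chromosome 19 zinc fingers, nuclear long noncoding RNAs, immediate early genes, channels, NF-kB genes and chromatin modifiers.

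Heat shock genes went in opposite directions. Of 26 tested chaperones 4 rose (15.4%) and 15 fell (57.7%), against 25.4% and 27.9% of all genes tested, with a median log2 fold change of -0.23 (-0.19 after GC correction). HSP90AA1, the inducible cytosolic HSP90, was at 786, 702, 864, 752, 757 and 819 CPM in Ctrl and at 340, 331, 424, 379 and 320 CPM in hypg15. It fell by 1.12 ± 0.08 on the log2 scale (adjusted p = 5.76e-07 by edgeR) and by 0.96 after GC correction. HSPH1 fell by 0.84 ± 0.09, HSPA13 by 1.14 ± 0.17 and HSP90B1, the HSP90 of the endoplasmic reticulum, by 0.94 ± 0.09. HSPA1B, an inducible HSP70, rose from 11.1 ± 1.12 to 17.2 ± 1.38 CPM and DNAJB1, its inducible HSP40 partner, from 146 ± 6.77 to 185 ± 7.77 CPM. Neither pair of groups overlapped. With the 60 min controls (Ctrl60) in place of Ctrl the log2 fold change of DNAJB1 was 0.11 (adjusted p = 0.0874 in edgeR). HSPA1A is nearly the same in sequence as HSPA1B, and too few read pairs were assigned to it to be tested. HSF1 itself rose by 0.31 ± 0.05, but by 0.04 after GC correction (adjusted p = 0.425 in edgeR).

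The promoters of these genes, from RefSeq on GRCh38.p14, are shown because the genes share one known activator and yet moved apart. Capitals mark matches to GAANNTTC or TTCNNGAA, a pair of the inverted repeats that HSF1 binds (both read the same on either strand), and 13.5% of 35116 promoter windows of the same length hold a match. HSPA1B is on the plus strand at chr6:31827488-31827787, and DNAJB1 (the window of the middle of its 3 listed starts) on the minus strand at chr19:14518348-14518647. HSP90AA1 (the downstream one of its 2 listed starts) is on the minus strand at chr14:102086995-102087294:
HSPA1B: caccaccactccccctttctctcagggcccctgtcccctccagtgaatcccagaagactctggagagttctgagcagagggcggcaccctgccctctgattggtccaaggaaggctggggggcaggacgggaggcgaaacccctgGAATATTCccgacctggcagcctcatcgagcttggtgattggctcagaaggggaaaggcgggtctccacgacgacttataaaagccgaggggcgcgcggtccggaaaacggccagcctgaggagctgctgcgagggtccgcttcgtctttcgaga
DNAJB1: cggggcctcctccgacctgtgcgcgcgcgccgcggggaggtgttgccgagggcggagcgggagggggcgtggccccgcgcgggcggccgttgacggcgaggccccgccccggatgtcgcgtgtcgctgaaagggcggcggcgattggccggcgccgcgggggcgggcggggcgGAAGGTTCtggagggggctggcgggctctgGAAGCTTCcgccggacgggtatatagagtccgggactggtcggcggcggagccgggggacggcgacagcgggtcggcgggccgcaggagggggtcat
HSP90AA1: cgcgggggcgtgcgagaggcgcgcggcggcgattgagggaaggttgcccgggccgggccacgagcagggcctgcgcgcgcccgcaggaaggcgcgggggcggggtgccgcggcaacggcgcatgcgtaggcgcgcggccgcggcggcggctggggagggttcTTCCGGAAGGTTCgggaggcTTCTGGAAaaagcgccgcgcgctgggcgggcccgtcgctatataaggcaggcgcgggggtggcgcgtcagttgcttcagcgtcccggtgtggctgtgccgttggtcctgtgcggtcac
The 3 windows hold 1, 2 and 3 matches in the order shown, those of HSP90AA1 partly overlapping. The windows with the most matches are shown: the upstream window of HSP90AA1 holds 0, and the upstream and downstream windows of DNAJB1 hold 0 and 1. The window of HSPH1 holds 0 matches to these letters. A match describes the letters only and is no measure of binding.

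Immediate early genes were called in both directions at 15 min. Of 33 tested 11 rose (33.3%) and 5 fell (15.2%), against 25.4% and 27.9% of all genes tested, with a median log2 fold change of 0.09. After GC correction 4 rose and 7 fell, with a median of -0.01, where 19.1% of all genes tested rose and 18.8% fell. MYC, at 384 to 417 CPM in Ctrl and 344 to 370 in hypg15, fell by 0.16 ± 0.04 (adjusted p = 0.00401 by edgeR). With Ctrl60 in place of Ctrl its log2 fold change was -0.064 (adjusted p = 0.222). JUN was at 15.5 ± 1.28 CPM in Ctrl and 14.8 ± 0.752 in hypg15 (adjusted p = 0.506 by edgeR), and fell by 0.23 after GC correction (adjusted p = 0.0201). EGR1 was at 7.88 ± 0.696 and 9.00 ± 1.22 CPM (adjusted p = 0.115), and FOS at 1.53 ± 0.180 and 1.85 ± 0.526 CPM (adjusted p = 0.162). JUND rose by 0.35 ± 0.07 and ZFP36, which destabilizes AU-rich transcripts, by 0.36 ± 0.07, whereas KLF6 fell by 0.21 ± 0.06. Without Ctrl library 3 or 5 the adjusted p of KLF6 was 0.0515 or 0.0525 in edgeR, and with the length correction 0.0551. After GC correction JUND (0.01) and KLF6 (-0.08) were no longer called, and ZFP36 (0.18) was called only with the curve centred on the median gene.

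In lists of T cell identity, adhesion and mechanical sensing, genes were called in both directions. Of 35 T cell receptor signalling genes 9 rose (25.7%) and 12 fell (34.3%), near the 25.4% and 27.9% of all genes tested. After GC correction 4 rose and 9 fell, where 19.1% of all genes tested rose and 18.8% fell. CD3E, a chain of the receptor complex, was at 561 ± 33.9 CPM in Ctrl and 605 ± 20.1 in hypg15 (adjusted p = 0.0813 by edgeR), and its log2 fold change of 0.11 was 0.13 after GC correction (adjusted p = 0.0416). Without Ctrl library 4 it was 0.15 (adjusted p = 0.0476). PTPRC, the CD45 phosphatase, went from 92.9 ± 18.7 to 47.1 ± 14.8 CPM, the costimulator CD28 fell by 0.61 ± 0.08 and the adhesion molecule CD2 by 0.47 ± 0.08. CD3G fell by 0.20 ± 0.07 with overlapping groups, but rose by 0.24 after GC correction. Without Ctrl library 3 or hypg15 library 76 the adjusted p of CD3G was 0.0501 or 0.0631 in edgeR. Of 29 T lineage transcription factors 6 rose and 13 fell (2 and 9 after GC correction), PHF6 by 1.07 ± 0.15, IKZF2 by 0.73 ± 0.20 and ETS1 by 0.55 ± 0.06. The groups of IKZF2 overlapped, and its log2 fold change was -0.08 after GC correction (adjusted p = 0.519 in edgeR). The receptors NOTCH1 (0.37 ± 0.06) and NOTCH3 (0.42 ± 0.07) rose, NOTCH1 by 0.12 after GC correction (adjusted p = 0.0746 in edgeR). Of 27 mechanosensitive and volume-regulated channels 9 rose and 8 fell, and 3 rose and 6 fell after GC correction. PIEZO1, a cation channel opened by membrane tension, rose from 408 ± 9.08 to 523 ± 49.0 CPM, but by only 0.09 on the log2 scale after GC correction (adjusted p = 0.140 in edgeR). PKD1 rose by 0.51 ± 0.07, the large-pore channel PANX1 fell by 0.60 ± 0.06 and the lipid scramblase ANO6 by 0.53 ± 0.08.

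Of 54 actin cytoskeleton genes 10 rose (18.5%) and 24 fell (44.4%), against 25.4% and 27.9% of all genes tested, with a median of -0.09. After GC correction 2 rose and 20 fell, with a median of -0.10, where 19.1% of all genes tested rose and 18.8% fell. The capping protein subunits CAPZA2 (-1.15 ± 0.11) and CAPZA1 (-0.92 ± 0.10) and ACTR2 of the Arp2/3 complex (-0.97 ± 0.11) fell. TLN1, which connects integrins to actin, rose by 0.31 ± 0.05. ACTB itself was at 11292 ± 660 CPM in Ctrl and 12913 ± 540 in hypg15 (adjusted p = 0.0474 by edgeR), and this call was lost without any 1 of 8 of the 11 libraries (adjusted p of 0.0607 to 0.107). It was lost as well after GC correction (0.047, adjusted p = 0.586 in edgeR), with Ctrl60 as control (adjusted p = 0.0659) and without a filter on low counts (adjusted p = 0.0794). GAPDH was at 6415 ± 494 and 6753 ± 602 CPM (adjusted p = 0.462). With the GC correction centred on the mean, GAPDH was called down by 0.19 on the log2 scale (adjusted p = 0.0387 in edgeR). The integrin genes ITGB1 (-0.79 ± 0.08) and ITGAL (0.32 ± 0.05) went apart, and the lamin B receptor gene LBR fell by 0.78 ± 0.07. Among 26 genes of the nuclear lamina and LINC complex 7 rose (26.9%) and 11 fell (42.3%), and 4 rose and 7 fell after GC correction.

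In the other stress and metabolic lists, several counts lay near the shares of all genes tested (25.4% up and 27.9% down). After GC correction these shares were 19.1% and 18.8%. Of 34 genes of the unfolded protein and integrated stress response 3 rose and 13 fell (1 and 12 after GC correction). Of 27 oxidative stress genes 3 rose and 10 fell (2 and 15), TXN, the main thioredoxin, by 0.88 ± 0.09, whereas the ferritin heavy chain FTH1 rose by 0.24 ± 0.05. Of 19 genes of the hypoxia axis 6 rose and 6 fell (4 and 3 after GC correction). HIF1A fell by 0.76 ± 0.16 (0.17 after GC correction, adjusted p = 0.111 in edgeR) and its prolyl hydroxylase EGLN2 rose by 0.56 ± 0.10. Of 24 NF-kB genes 5 rose and 9 fell (0 and 7 after GC correction), TNFAIP8 by 0.79 ± 0.13, and of 16 BCL2 family genes 2 rose and 5 fell (1 and 5), the proapoptotic BID by 0.32 ± 0.05. Of 33 interferon-stimulated genes 9 rose (27.3%) and 10 fell (30.3%), with 4 up and 11 down after GC correction, the DNA sensor IFI16 by 1.11 ± 0.14. Of 25 glycolysis genes 7 rose and 3 fell, but 4 rose and 7 fell after GC correction. Of 27 cholesterol genes 7 rose and 11 fell (4 and 6 after GC correction), and of 27 calcium and NFAT genes 9 rose and 9 fell (2 and 6).

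Within the number block, hypg15 was compared with hypg3, 6 libraries kept at 9 g for 3 min. In this comparison 271 of 15915 genes were higher in hypg15 (1.7%) and 134 were lower (0.842%). The lower count was 75 without library 76, 74 without library 79 and 483 with the GC correction centred on the mean, and the higher count was 172 without library 79 and 170 without library 80. Both comparisons use the same hypg15 libraries and are not independent. The genes ranked here were called and averaged 10 CPM or more. Those of largest increase were RENO1 (0.69), MIR17HG (0.65), C1QTNF6 (0.62), SLC23A1 (0.61) and SNORD3B-2 (0.53) on the log2 scale, with adjusted p of 0.00110 to 0.0184 in edgeR. The called genes of largest decrease were PFDN4 (-0.62), a subunit of the prefoldin chaperone, the repressor ZNF281 (-0.61), SF3B6 (-0.57), FAM133B (-0.55) and RBIS (-0.54), a ribosome biogenesis factor. C1QTNF6, a secreted C1q-like protein, went from 7.10 ± 0.325 CPM in Ctrl to 13.1 ± 0.873 CPM in hypg15. MYC and JUN were lower at 15 min than at 3 min, by 0.42 (adjusted p = 0.000510) and 0.46 (adjusted p = 0.00412) on the log2 scale in edgeR, and EGR1 was higher by 0.53. DNAJB1 was higher by 0.30 (adjusted p = 0.00374) and HSPA1B by 0.43 (adjusted p = 0.00658), whereas HSP90AA1 differed by -0.08 (adjusted p = 0.778). GC content was related to this difference as well (Spearman's rho of 0.39 across genes).

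The changes after 15 min were set against those after 60 min at 9 g, which have their own 60 min control group at 1 g (Ctrl60, 6 libraries). The count columns of Ctrl60 are named as controls plus HEPES, a pH buffer, whereas their titles and treatment labels give only Ctrl60, so that a part of the buffer in values that rest on Ctrl60 cannot be told apart from that of time. A model over the 4 groups tested whether the log2 fold change of hypg15 over Ctrl differed from that of hypg60 over Ctrl60. Of these groups only hypg15 lies in the number block that it shares with hypg3. The block and the exposure time cannot be told apart in this test. Of 17192 genes 135 had a higher log2 fold change at 15 min (0.785%) and 358 a lower one (2.08%). The lower count was 150 without library 76, 209 without library 80 and 742 with the GC correction centred on the mean, and the higher count was 62 without a filter on low counts. The genes of largest difference that averaged 10 CPM or more included heat shock genes. HSPA1B had a log2 fold change of 0.63 at 15 min and 2.69 at 60 min, a difference of -2.07 ± 0.11 (SE) with an adjusted p of 9.9e-12 in edgeR. DNAJB1 had 0.34 and 1.46, a difference of -1.13 ± 0.07. HSPH1 had -0.84 and 0.28 (difference of -1.12 ± 0.18), and HSP90AA1 -1.12 and -0.11 (difference of -1.03 ± 0.19). Among 26 chaperones 7 had a lower change at 15 min in this edgeR test. ZNF184 (-1.12 ± 0.22) and USPL1 (-1.06 ± 0.21), a SUMO peptidase of Cajal bodies, also had a lower change at 15 min. Of 36 spliceosomal snRNA genes 7 had a higher change at 15 min. RNU5A-1 had a log2 fold change of -0.52 at 15 min (-0.14 after GC correction, no longer called, with an adjusted p of 0.425 in edgeR) and -1.58 at 60 min, RNU4-2 0.04 and -0.77, and RNU4-1 0.03 and -0.77. These are copies of U5 and U4 RNA with near-identical relatives, so their counts are uncertain. EGR1 (difference of 1.01 ± 0.11) had a higher change at 15 min, but EGR1 was itself higher in Ctrl60 than in Ctrl by 1.16 on the log2 scale. With Ctrl60 as the control of hypg15, the log2 fold change of EGR1 was -0.97. ZNF628 had 0.49 at 15 min and -0.46 at 60 min. The 13 mitochondrial protein-coding genes had a median of 0.71 at 15 min and 0.94 at 60 min, with a median difference of -0.24. Of these 13 genes, 0 had a higher and 0 a lower change at 15 min in this edgeR test. The median share of counts in the mitochondrial genome was 2.21% in hypg15 and 2.27% in hypg60. It was 1.496% in Ctrl and 1.285% in Ctrl60, so that the control groups differed as well.

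Side by side over the exposure times, and with the Ctrl libraries shared by all times up to 15 min, the members had unlike courses. The log2 fold changes of MYC against Ctrl were 0.37, 0.34, 0.23, 0.15, 0.03, -0.03 and -0.16 at 20 s, 75 s and 3, 5, 7, 9 and 15 min. Those of JUN were 0.44, 0.50, 0.37, 0.31, 0.21, 0.08 and -0.06. HSP90AA1 had -0.45, -0.57, -1.07, -0.32, -0.32, -0.26 and -1.12, with its lowest values at 3 and 15 min, the times of the number block 69 to 80. HSPA1B had 0.05 to 0.27 before 15 min, and MIR17HG 0.06 to 0.45. The median log2 fold change of the mitochondrial protein-coding genes was 0.14 at 20 s and 0.28 to 0.48 from 75 s to 9 min.

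**Figure D5:**
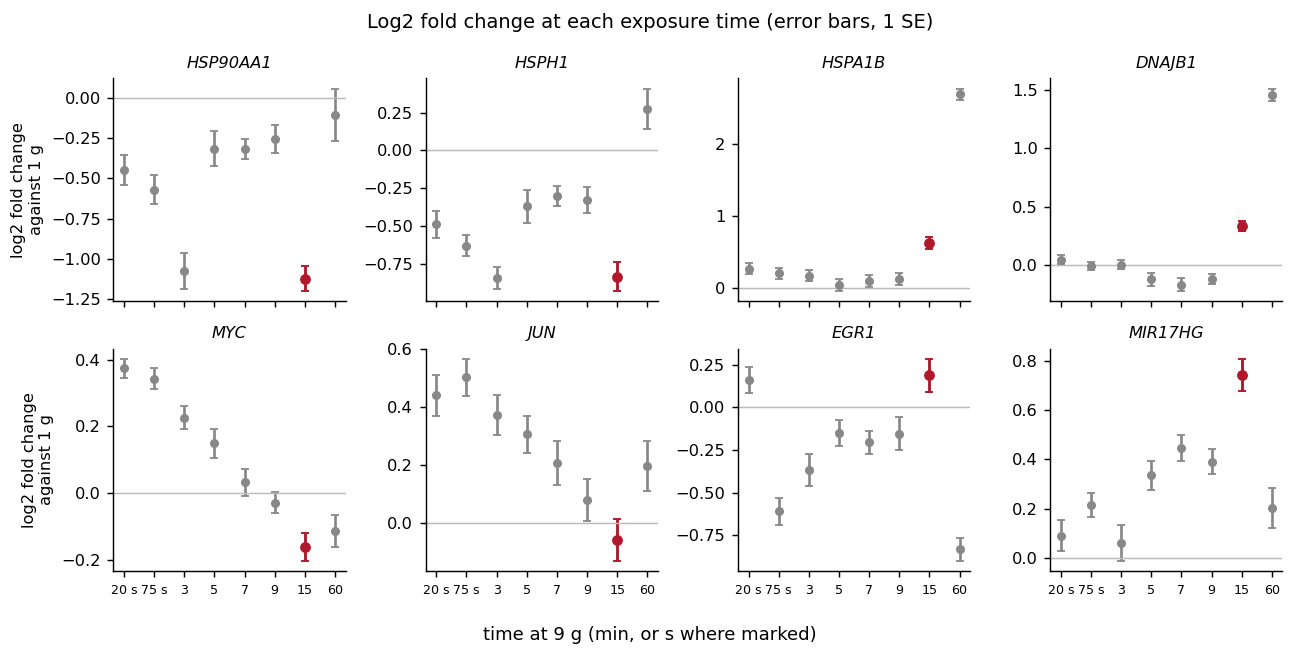
Log2 fold change against 1 g (y axis, scaled per gene) at each exposure time (x axis) for 4 heat shock genes, 3 immediate early genes and MIR17HG, with error bars of 1 SE, and 15 min in red. Times up to 15 min share the Ctrl libraries and 60 min is set against Ctrl60. HSPA1B and DNAJB1 are at 2.69 and 1.46 at 60 min, and MYC and JUN are lower at 15 min than at 20 s.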

How the data were processed

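RNA-seq counts of Jurkat T cells were analysed. Per the labels and submitters' processing notes, the authors trimmed reads with Trim Galore 0.6.5, mapped them with STAR 2.7.3a and deposited raw counts of read pairs on the reverse strand per gene (featureCounts 2.0.1, 2.0.3 in the file header; GRCh38, Ensembl 104). Of 60663 genes with a usable record, those passing filterByExpr (minimum count of 10) entered edgeR 4.0.16 (quasi-likelihood F test, TMM, R 4.3.3). An adjusted p (Benjamini-Hochberg) under 0.05 was required. Each model held only the groups compared. CPM are TMM-normalized, but marker sums and shares use total counts. The standard error was derived from the F statistic. Gene types and GC content came from GENCODE 29, another release than that of the counts. GC curves used lowess with a span of 0.3. DESeq2 1.42.0 and sva 3.50.0 served as alternatives, and the scripts were tested on simulated counts. Depth (22634465 to 36083081 counts) limits genes of low counts most.

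Genes named were, in each direction, the 12 of largest change with a mean of at least 10 CPM, an adjusted p under 0.05 and groups without overlap, the 8 such genes of at least 100 CPM, up to 3 called genes per list, 5 per other comparison, and 12 genes always named (HSP90AA1, HSPA1A, DNAJB1, GAPDH, ACTB, FOS, JUN, EGR1, MYC, CD3E, MALAT1 and NEAT1). MT-ND3 and MT-CO3 were added for their small changes. Some genes that this rule names are not reported here. The members and lists were chosen with earlier results of these data known.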

Additional observations from a re-analysis of the deposited data

Results flagged for a closer look

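In 302 groups of 5 or 6 libraries, 23 held a library far from the others, where chance gives about 1 in 20. Ctrl library 3 accounted for 17 of these. It was the highest Ctrl library for RSL24D1 (81.3 CPM, others at most 65.8), MRPL1 (17.8), HMGB1P6 (24.0), ZCRB1 (26.1), EID1 (39.1), ANP32E (51.7), EIF3E (152) and DDX21 (190). It was also the highest for ETS1 (309 CPM), CAPZA2 (31.9), CAPZA1 (116), MTREX (59.7), PSMD12 (43.6), CENPU (29.6), HDAC2 (103.8) and IFI16 (145). For HSPA1B it was the lowest (8.97 CPM, others at least 11.1). Its slope on GC content was the lowest of the Ctrl libraries (-0.12 per 10 percentage points). The part of this slope in these values was not tested.

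Ctrl library 5 was high for MIR17HG (32.8 CPM, others at most 29.8). In hypg15, library 80 was low for CD2 (43.2 CPM, others at least 60.8) and library 78 high for ZNF184 (8.68 CPM, others at most 7.72). Library 77 was high in the share of mitochondrial counts (3.32%), library 78 in that of genes without a type (0.337%), and library 80 in that of small nucleolar RNAs (0.598%).

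The responses at 15 and 60 min differed by edgeR's interaction test for 24 named genes, and the number block and the exposure time cannot be told apart in it. The log2 fold change was lower at 15 min for HSPA1B (-2.07), DNAJB1 (-1.13), HSPH1 (-1.12), HSP90AA1 (-1.03), ZNF184 (-1.12), USPL1 (-1.06) and ZNF281 (-0.94). The same held for RSL24D1 (-0.77), RPL7 (-0.57), RPL34 (-0.44), RPS24 (-0.55), SF3B6 (-0.61), LSM3 (-0.53), POLR2K (-0.59), ATP5F1E (-0.55), UQCRB (-0.50) and COX6C (-0.55). It was higher at 15 min for RNU5A-1 (1.04), EGR1 (1.01), ZNF628 (0.94), RNU4-2 (0.80), RNU4-1 (0.78), EGLN2 (0.55) and MIR17HG (0.53).

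Library 75 entered no comparison above. On chromosomes 1, 2 and 10 to 22, it was above all Ctrl libraries for 83.5% of 3009 upregulated genes (33.6% of all tested genes there) and below all for 84.1% of 2574 downregulated genes (30.0% of all tested genes there). These genes were called against the same Ctrl libraries, and library 75 shares the treatment and number block of the other hypg15 libraries. The values are therefore no independent check.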

How the results depend on the processing

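The up and down counts of 15 min against 1 g stayed within 1.5 times the main counts (4040 and 4437) under RLE normalization, total counts, no filter, a length correction, DESeq2, 3 surrogate variables, all 9 g libraries in 1 model, Ctrl60 alone or added as control, and the GC correction centred on the median gene. Under that GC correction the members changed more than the counts. Of the 4040 upregulated genes 1872 kept their call and 54 turned, and of the 4437 downregulated genes 1991 kept it and 204 turned. Leaving out 1 library gave 3514 to 4139 up and 3893 to 4615 down. The GC correction centred on the mean gave 2062 up. With library 75 included, whose missing chromosomes enter as 0, 2412 fell. On chromosomes 1, 2 and 10 to 22, where fewer genes are tested, 2907 fell with library 75, and 2625 rose and 2798 fell without it. Against hypg3, leaving out 1 hypg15 library gave 170 to 263 higher genes (172 without library 79, 170 without library 80) and 74 to 118 lower genes (75 without library 76, 74 without library 79), and the GC correction centred on the mean gave 483 lower genes. Against the 60 min response, 62 genes were higher without a filter, 742 were lower with the GC correction centred on the mean, and leaving out 1 hypg15 library gave 98 to 178 higher and 150 to 445 lower genes (150 without library 76, 209 without library 80). The cause was not tested.

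Of 142 named genes, signs reversed under the GC correction centred on the mean for HSF1 (-0.033), JUND (-0.062), CD3G (0.17), ACTB (-0.026) and GAPDH (-0.19), and for CD3G (0.24) when centred on the median. EGR1 reversed with Ctrl60 as control (-0.97), ACTB with library 75 included (-0.069, a gene of chromosome 7, where that library has no counts, so that this value says nothing of ACTB), and RNU4-2 (-0.29) and RNU4-1 (-0.30) under the length correction. The GC correction centred on the median gene and the chromosome set without library 75 were chosen after seeing the data. No paired analysis was possible because the groups share no replicate number. With 5 and 6 libraries of unlike depth, differences of genes at a few counts are not resolved.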
